A study of Mus musculus with 6 samples.

Results

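The WNT ligands, their receptors and their regulators were examined in RNAseq data of the mouse mammary tumour lines J110 and SSM3. Members were chosen by gene name, as the WNT ligands, Frizzled, LGR and R-spondin genes, the DKK and SFRP antagonists and 12 single genes of receptors, destruction complex, TCF/LEF factors and inhibitors. This rule found 56 of the 52636 genes in the count table. The J110 line goes back to a mouse transgene in which the MMTV LTR, a viral promoter active in mammary epithelium, drives AIB1 cDNA. SSM3 cells came from mammary tumours of 129SvEv mice. Each line was grown in its own medium with a different serum and CO2 level, was given no drug, and was sequenced as 3 biological replicates from the 3′ ends of its mRNA. Line, mouse strain and culture therefore cannot be told apart, and each line stands for 1 tumour-derived culture.

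WNT ligands are secreted lipid-modified proteins that bind Frizzled receptors. With the co-receptors LRP5 or LRP6 they stop the destruction complex of APC, AXIN and GSK3 from degrading β-catenin, which then acts on genes through TCF/LEF factors. Other ligand and receptor pairs act without β-catenin on cell polarity and movement. R-spondins, through LGR receptors, hold back the ubiquitin ligases ZNRF3 and RNF43 that remove Frizzled from the cell surface, while DKK, SFRP and WIF1 proteins block the ligands or co-receptors. In the mammary gland WNT signals take part in duct branching, the side-branching that follows progesterone, and the upkeep of basal stem cells.

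Total counts ranged from 5209740 to 5416305 in J110 and from 4200785 to 4792941 in SSM3. Levels are given as CPM, counts relative to library size after TMM scaling, and as raw counts where they are low. Reads on the rRNA locus made up 15.1% to 17.2% of the J110 counts and 0.779% to 1.27% of the SSM3 counts, and left out of the library sizes and the test they moved the members called from 9 to 10 lower and left 9 higher. The kit reads one end of each transcript, so levels were compared between lines for the same gene and not between genes. Ncoa3, which encodes AIB1, had 102 to 110 counts in J110 and 181 to 199 in SSM3. Whether transgene reads map to Ncoa3 is not given in the sources used here, so the gene does not check the labels. Of 13 mammary epithelial markers, 11 were higher than 3 counts in some SSM3 library and 10 in some J110 library, with sums of 14586 to 15704 and 3137 to 3268 CPM. Krt19 was the largest part of the SSM3 sum, with a mean of 7412 CPM there and 18.6 CPM in J110. In J110, Epcam had only 2, 1 and 7 counts while Krt8 had 6182 to 6584, against 9668 to 12324 in SSM3. Krt18 was higher in J110, with means of 1430 CPM there and 970 CPM in SSM3. Esr1, the oestrogen receptor, had 31, 15 and 10 counts in J110 and 222, 175 and 193 in SSM3, and the luminal factor gene Gata3 had 14, 17 and 18 against 4790, 5210 and 4725. Fibroblast markers summed to 1.54 to 4.38 CPM in J110 and to 1336 to 1480 CPM in SSM3, where Dcn made up nearly all and Col1a1, Col1a2, Col3a1 and Lum were at 0. Leukocyte, endothelial and erythroid markers summed to 158 to 181 CPM in J110, almost all Cdh5, with at most 11 counts of Kdr and 4 of Pecam1, and to at most 0.849 CPM in SSM3. The part of these markers in the results below was not tested. In RNA from whole cultures, fewer cells of a type and less RNA per cell cannot be told apart.

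Of the 56 members, 23 passed the filter on low counts and were tested with edgeR's quasi-likelihood test. SE below is the absolute log2 fold change divided by the square root of the F statistic of that test. It may understate the error where a line has few counts. DESeq2, a second test, gave a standard error of 0.35 against 0.15 for Wnt4 and of 0.33 against 0.17 for Wnt5a. A gene was called when its p, after Benjamini-Hochberg adjustment over all 12284 genes tested, was below 0.05. Among the members, 18 were called, 9 higher and 9 lower in SSM3. That is 78.3% of those tested, where 77.9% of all genes tested were called (38.6% higher and 39.2% lower), so the count is close to the background and is not a result about the members. The libraries of the lines did not overlap for 19 of the 23, where 79.6% of all genes tested did not overlap. A called change of at least 4-fold was fitted for 13 of the 23 (56.5%), where 21.7% of all genes tested had one. For 6 of the 23 every library of one line held at most 3 counts, so they passed the filter through the other line alone. The same held for 1143 of the 12284 genes tested. All 6 are among the 13 with a called change of at least 4-fold. For such genes the filter itself favours a large change, so no more is read from the share of 56.5%. The median log2 fold change was 0.07 over the members and -0.014 over all genes tested.

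**Figure D1:**
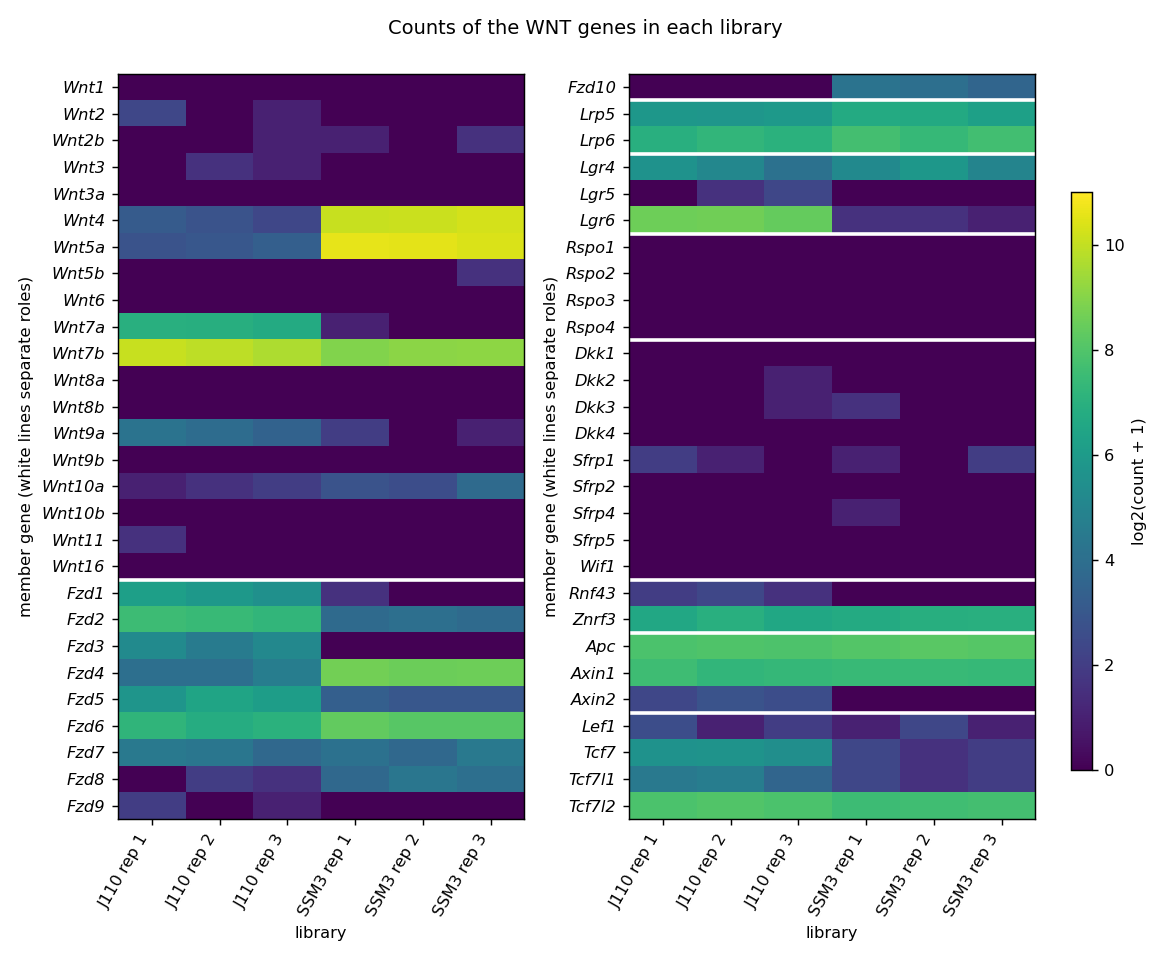
Counts of all 56 members in the 6 libraries, coloured by log2(count + 1), with genes in rows, libraries in columns and white lines between roles. Wnt4, Wnt5a and Fzd4 are bright in SSM3, Wnt7a and Lgr6 in J110, and 17 genes, among them all 4 R-spondins, are dark in every library.

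The ligands seen differed by line. SSM3 held Wnt4 and Wnt5a at 197-fold and 207-fold the J110 level, J110 held Wnt7a, which was nearly without counts in SSM3, and Wnt7b was present in both with more in J110. Of the 19 ligand genes, 4 were tested and all 4 were called, 2 higher and 2 lower in SSM3, where 77.9% of all genes tested were called, so the count itself is not read as a result.

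Wnt4 (ENSMUSG00000036856, chromosome 4 of mm10 from 137277489 to 137299726, forward strand) encodes a ligand that mediates progesterone-driven side-branching in the mammary gland. It had 8, 6 and 4 counts in the J110 libraries and 1071, 1099 and 1256 in the SSM3 libraries. The lines did not overlap. The level was 1.19 ± 0.354 in J110 and 241 ± 8.47 in SSM3 (CPM, SD, n = 3 each). Set against J110, SSM3 had a log2 fold change of 7.62 (SE 0.15, edgeR adjusted p = 2.24e-16).

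Wnt5a (ENSMUSG00000021994, chromosome 14 from 28504750 to 28527448, forward strand) is the best known ligand of the β-catenin-independent branch and restrains duct growth in the gland. It had 6, 7 and 9 counts in J110 and 1545, 1478 and 1344 in SSM3, again with no overlap. The levels were 1.47 ± 0.369 CPM (SD, n = 3) and 308 ± 38.6 CPM (SD, n = 3), a log2 fold change of 7.69 (SE 0.17, edgeR adjusted p = 7.01e-16). Gm2670 shares 358 exon bases with Wnt5a on the opposite strand and had at most 8 counts.

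The few J110 counts of Wnt4 and Wnt5a were set beside the low counts that genes of the other line leave in each library. Over 26 genes at 200 CPM or more in every SSM3 library, with a median of at most 3 counts in J110, such counts came to 0.0286%, 0.0266% and 0.216% of the SSM3 level in J110 replicates 1, 2 and 3. Wnt4 stood at 0.641%, 0.493% and 0.347% of its mean SSM3 level in the same libraries, and Wnt5a at 0.375%, 0.449% and 0.609%. Both were above the level of those genes in each library, but the genes were chosen for low counts, and how much of the J110 values such counts make up was not tested.

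Wnt7a (ENSMUSG00000030093, chromosome 6 from 91363981 to 91411363, reverse strand) encodes a ligand known from limb and female reproductive tract patterning. It had 120, 118 and 105 counts in J110 and 1, 0 and 0 in SSM3. The J110 level was 22.8 ± 0.772 CPM (SD, n = 3), and the ratio of J110 to SSM3 was 325, with an exact 95% counting interval from 57.9 to 12855 that covers counting error only (edgeR adjusted p = 3.15e-11). When SSM3 replicate 1 was left out, which held the single SSM3 count, the fitted log2 fold change moved from -7.89 to -9.82.

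Wnt7b (ENSMUSG00000022382, chromosome 15 from 85535437 to 85582473, reverse strand), a ligand of duct epithelium in the normal gland, had 1087, 963 and 794 counts in J110 and 480, 543 and 554 in SSM3. All 3 J110 libraries were above all 3 SSM3 libraries, at 189 ± 22 and 111 ± 4.24 CPM (SD, n = 3 each). It fell by 0.77 in log2 units (SE 0.090, edgeR adjusted p = 8.68e-07). A test for changes beyond 2-fold gave it an adjusted p of 1, which ran over the alternatives from 6.51e-16 to 1. AU022754, which shares 324 exon bases with it on the opposite strand, had at most 17 counts.

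The other 15 ligands were not tested, 8 of them without a count in any library (Wnt1, Wnt3a, Wnt6, Wnt8a, Wnt8b, Wnt9b, Wnt10b and Wnt16). Wnt9a had 17, 14 and 10 counts in J110 and 3, 0 and 1 in SSM3, a ratio of J110 to SSM3 of 9.70 (exact 95% counting interval 3.51 to 37.3). Wnt10a had 1, 2 and 3 counts in J110 and 6, 5 and 13 in SSM3, with SSM3 at 4.23 times the J110 level (interval 1.68 to 12.6). When every gene with at least 1 count was tested, the edgeR adjusted p was 2.16e-06 for Wnt9a and 0.00629 for Wnt10a. That setting made some p values far smaller than in the main test. The edgeR adjusted p of Lgr6 went from 1.48e-14 to 5.41e-191. Its p values are therefore not read as calls. Wnt2 had at most 4 counts in a library, and Wnt2b, Wnt3, Wnt5b and Wnt11 at most 2.

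The 5′ flanks of a ligand and a receptor from each direction are given here as examples of members whose level differed widely between the lines. They are the bases before the outermost annotated start of the gene, taken from the RefSeq promoter table of GRCm38.p6, 5′ to 3′ on the gene's strand. Capitals mark the GC box GGGCGG or its reverse complement CCGCCC, a motif of SP1-type factors, with overlapping matches joined. The stretch of Wnt4 is chr4:137277385-137277488 on the forward strand, that of Wnt7a chr6:91411364-91411603 on the reverse strand, that of Fzd4 chr7:89404116-89404354 on the forward strand and that of Lgr6 chr1:135105277-135105526 on the reverse strand.
Wnt4: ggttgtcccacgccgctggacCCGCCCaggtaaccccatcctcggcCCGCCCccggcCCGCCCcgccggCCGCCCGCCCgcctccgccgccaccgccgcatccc
Wnt7a: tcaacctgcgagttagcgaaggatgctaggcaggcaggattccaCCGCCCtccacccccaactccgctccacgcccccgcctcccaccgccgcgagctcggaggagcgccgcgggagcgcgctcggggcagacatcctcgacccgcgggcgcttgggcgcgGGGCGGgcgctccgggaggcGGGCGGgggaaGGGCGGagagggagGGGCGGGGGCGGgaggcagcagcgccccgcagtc
Fzd4: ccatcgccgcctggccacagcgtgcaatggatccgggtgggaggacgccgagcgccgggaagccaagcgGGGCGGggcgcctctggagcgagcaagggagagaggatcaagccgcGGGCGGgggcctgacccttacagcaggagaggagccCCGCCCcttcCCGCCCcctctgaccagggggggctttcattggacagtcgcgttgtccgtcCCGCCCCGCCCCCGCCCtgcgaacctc
Lgr6: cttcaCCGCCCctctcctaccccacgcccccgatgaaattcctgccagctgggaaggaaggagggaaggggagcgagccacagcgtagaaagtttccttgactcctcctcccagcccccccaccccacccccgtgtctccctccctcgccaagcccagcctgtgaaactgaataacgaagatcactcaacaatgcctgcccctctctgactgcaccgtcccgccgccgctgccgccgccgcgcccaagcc
The flanks differ in length, with 104 bases for Wnt4, 240 for Wnt7a, 239 for Fzd4 and 250 for Lgr6, so their counts of GC boxes are not compared. Those of Wnt4 and Fzd4 held 5 and 7 GC boxes, counting overlapping matches, and had a GC content of 83.7% and 72.8%. Those of Wnt7a and Lgr6 held 6 and 1, at 77.1% and 65.2% GC. The table held 45 promoters of 36 members, each from 250 bases before to 50 after the start, and 32 of them held a GC box on either strand, which 35.7% of all 32851 promoters did. The TCF/LEF cores CTTTGAT and CTTTGAA, searched on both strands, were in 3 of the 45 and in 8.65% of all promoters, and in 0 of the 14 promoters of 12 tested members. A match, or its absence, describes these letters in this window only.

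Each line had Frizzled receptors that were higher in it than in the other. Of the 10 genes, 9 were tested, and 4 were called higher in SSM3 (Fzd4, Fzd6, Fzd8 and Fzd10), 4 lower (Fzd1, Fzd2, Fzd3 and Fzd5), and Fzd7 was not called. These shares are near those of all genes tested, of which 38.6% were called higher and 39.2% lower.

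Fzd4 (ENSMUSG00000049791, chromosome 7 from 89404355 to 89413134), which also binds norrin and is known from retinal vessels, had 15, 15 and 24 counts in J110 and 409, 372 and 376 in SSM3. The levels were 3.62 ± 1.20 and 81.6 ± 8.44 CPM (SD, n = 3 each), with no overlap and a log2 fold change of 4.49 (SE 0.17, edgeR adjusted p = 4.30e-13). The J110 value was highest in replicate 3, at 6.14% of the mean SSM3 level, against 3.54% and 3.63% in the other two. Fzd6 (ENSMUSG00000022297), a polarity receptor of skin and hair, had 147, 110 and 130 counts in J110 and 323, 281 and 284 in SSM3. It rose from 25.7 ± 3.50 to 62.7 ± 8.14 CPM (SD, n = 3 each), 1.28 as log2 fold change (SE 0.13, edgeR adjusted p = 9.62e-08).

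At lower counts, Fzd8 (ENSMUSG00000036904) had 0, 3 and 2 counts in J110 and 12, 19 and 15 in SSM3. The ratio of SSM3 to J110 was 9.72 (exact 95% counting interval 3.88 to 31.4, edgeR adjusted p = 5.45e-05). Its fitted log2 fold change of 3.19 was 2.60 without J110 replicate 1 and 3.84 without J110 replicate 2. Fzd10 (ENSMUSG00000081683) had no count in J110 and 17, 15 and 11 counts in SSM3. Against a floor of 3 counts per library it was at least 4.88-fold higher in SSM3 (edgeR adjusted p = 4.93e-06).

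Fzd2 (ENSMUSG00000050288, chromosome 11 from 102604396 to 102608058) had 187, 167 and 150 counts in J110 and 13, 15 and 13 in SSM3. It fell from 33.5 ± 2.40 to 2.89 ± 0.299 CPM (SD, n = 3 each), with a log2 fold change of -3.53 (SE 0.18, edgeR adjusted p = 3.04e-11). Fzd5 (ENSMUSG00000045005), known from eye and intestinal Paneth cells, had 52, 84 and 68 counts in J110 and 9, 7 and 7 in SSM3. The log2 fold change was -3.05 (SE 0.30, edgeR adjusted p = 9.14e-08). The lines did not overlap for either gene. Gm38058 shares 1233 exon bases with Fzd5 on the opposite strand and had at most 2 counts.

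Fzd1 (ENSMUSG00000044674) had 73, 57 and 45 counts in J110 and 2, 0 and 0 in SSM3. The ratio of J110 to SSM3 was 82.8 (exact 95% counting interval 22.6 to 689, edgeR adjusted p = 1.54e-08), and the fitted log2 fold change of -6.13 was -8.85 without SSM3 replicate 1, which held both SSM3 counts. Fzd3 (ENSMUSG00000007989), a polarity receptor of growing axons, had 37, 23 and 34 counts in J110 and none in SSM3, and was at least 9.37-fold lower in SSM3 (edgeR adjusted p = 2.58e-07). Low SSM3 counts of this kind were set beside those of 15 genes at 200 CPM or more in every J110 library with a median of at most 3 counts in SSM3, whose SSM3 counts came to 0.0837%, 0.409% and 0.0695% of the J110 level in replicates 1, 2 and 3. In SSM3 replicate 1, Fzd1 stood at 3.85% of its mean J110 level with 2 counts and Wnt7a at 0.977% with 1 count, and both were at 0 in the other two libraries. How much of these values such counts make up was not tested.

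Fzd7 (ENSMUSG00000041075), a receptor of mammary basal cells, had 21, 19 and 12 counts in J110 and 16, 12 and 21 in SSM3. The lines overlapped at 3.44 ± 0.821 and 3.43 ± 0.823 CPM (SD, n = 3 each), and the log2 difference was -0.01 with a 95% interval from -0.66 to 0.65 (edgeR adjusted p = 0.988). A change of less than about that size was not detectable at this depth. Fzd9 had 3, 0 and 1 counts in J110 and none in SSM3, and was not tested.

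**Figure D2:**
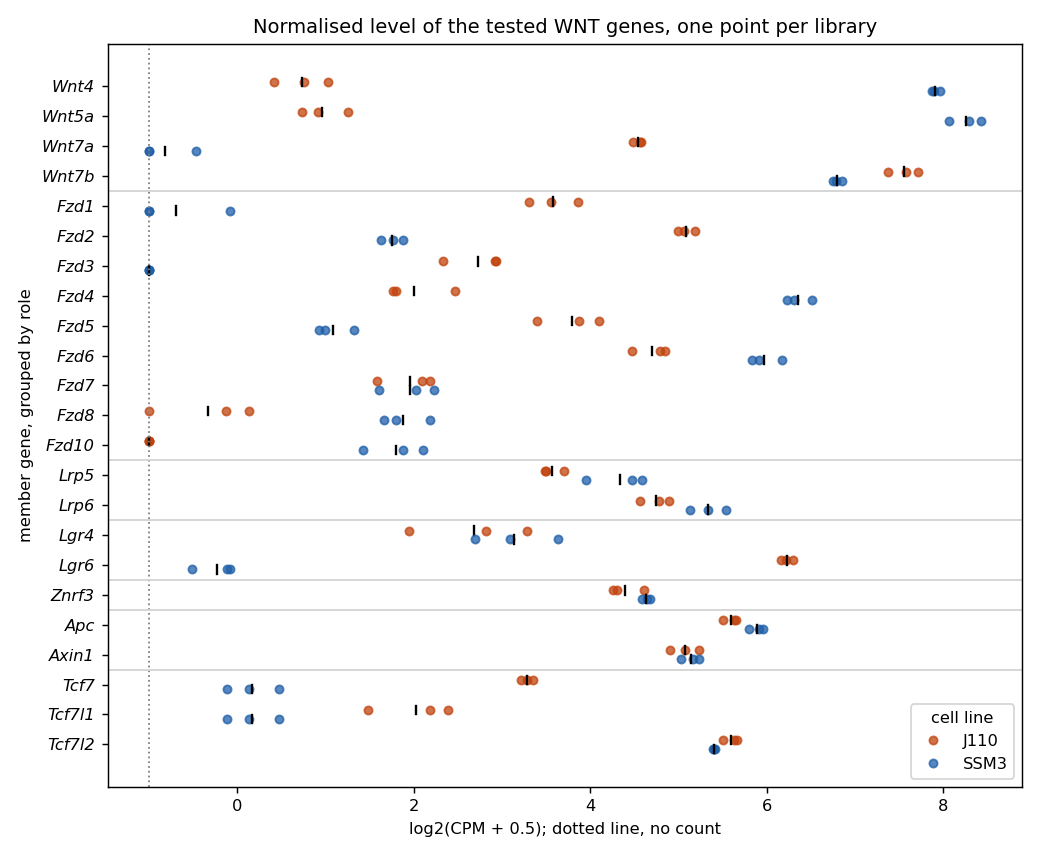
Level of the 23 tested members on a log2(CPM + 0.5) scale, one point per library, red for J110 and blue for SSM3, with black ticks at the mean of 3 libraries and a dotted line where there is no count. The ligands Wnt4 and Wnt5a lie far to the right in SSM3, Wnt7a and Lgr6 in J110, while Fzd7, Lgr4, Znrf3 and Axin1 overlap.

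Both LRP co-receptors, which phosphorylation turns into docking sites for AXIN, were called higher in SSM3, where 38.6% of all genes tested were. Lrp5 (ENSMUSG00000024913) had 56, 54 and 60 counts in J110 and 106, 102 and 75 in SSM3. The log2 fold change was 0.82 (SE 0.19, edgeR adjusted p = 0.000788). Lrp6 (ENSMUSG00000030201) had 120, 148 and 129 counts in J110 and 207, 163 and 200 in SSM3. The log2 fold change was 0.60 (SE 0.14, edgeR adjusted p = 0.000691). In CPM the lines did not overlap for either. Tested for a change beyond 2-fold, neither was called, each with an adjusted p of 1. Their adjusted p ran over the alternatives from 8.93e-06 to 1 for Lrp5 and from 9.35e-06 to 1 for Lrp6.

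The receptors of R-spondins differed by gene. Lgr6 (ENSMUSG00000042793, chromosome 1 from 134983301 to 135105276, reverse strand), known from hair follicle and other epidermal stem cells, had 383, 396 and 340 counts in J110 and 2, 2 and 1 in SSM3. The J110 level of 74.4 ± 3.72 CPM (SD, n = 3) was 212 times that of SSM3 (exact 95% counting interval 90.5 to 653, edgeR adjusted p = 1.48e-14). Lgr4, the widely expressed member of the family, had 48, 33 and 16 counts in J110 and 36, 56 and 30 in SSM3. Its libraries overlapped, and the log2 difference was 0.42 with a 95% interval from -0.26 to 1.10 (edgeR adjusted p = 0.241). With J110 replicate 3 and SSM3 replicate 2 both left out it was -0.18. Lgr5, the marker of intestinal stem cells, had 0, 2 and 4 counts in J110 and none in SSM3.

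Their ligands were not seen. Rspo1, Rspo2, Rspo3 and Rspo4 had no count in any library. A count of 0 allows up to 3 counts, which corresponds to 0.578 to 0.668 CPM in these libraries. The secreted antagonists were also absent or near the floor. Of 9 genes, Dkk1, Dkk4, Sfrp2, Sfrp5 and Wif1 had no count, and Dkk2, Dkk3, Sfrp1 and Sfrp4 had at most 3 counts in any library. No antagonist and no R-spondin entered the test, so their difference between the lines was not tested.

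Of the ubiquitin ligases that clear Frizzled from the membrane, Znrf3 had 97, 121 and 92 counts in J110 and 106, 118 and 123 in SSM3. Its lines overlapped in CPM and the log2 difference was 0.24 with a 95% interval from -0.06 to 0.54 (edgeR adjusted p = 0.128). It was called, higher in SSM3, with library size scaling alone (0.42, edgeR adjusted p = 0.0141) and without J110 replicate 2 (0.35, edgeR adjusted p = 0.0493). Its adjusted p ran over the alternatives from 0.0141 to 1, and the 1 came only from the test for changes beyond 2-fold. Rnf43 had 3, 4 and 2 counts in J110 and none in SSM3.

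In the destruction complex, Apc (ENSMUSG00000005871), the scaffold lost in many intestinal tumours, had 233, 248 and 239 counts in J110 and 268, 290 and 277 in SSM3. It was higher in SSM3, at 58.8 ± 3.32 against 47.9 ± 2.66 CPM (SD, n = 3 each), by 0.29 on the log2 scale (SE 0.094, edgeR adjusted p = 0.00967). The call was lost without J110 replicate 1 (0.24, edgeR adjusted p = 0.0562) and when J110 replicate 3 and SSM3 replicate 2 were both left out (0.29, edgeR adjusted p = 0.0509). Its adjusted p ran over the alternatives from 0.000299 to 1, and the 1 came only from the test for changes beyond 2-fold. Axin1 had 192, 149 and 159 counts in J110 and 167, 167 and 162 in SSM3, with overlapping libraries and a log2 difference of 0.07 (95% interval -0.19 to 0.33, edgeR adjusted p = 0.602). Axin2, a scaffold that is itself a target of β-catenin, had 4, 6 and 5 counts in J110 and none in SSM3, at least 1.498-fold lower in SSM3. It did not pass the filter, and with every gene of at least 1 count tested its adjusted p was 0.000708 from edgeR's test. That p is not read as a call, for the reason given with Wnt9a.

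Of the TCF/LEF factors, 2 of the 3 tested were lower in SSM3, where 39.2% of all genes tested were. Tcf7 (ENSMUSG00000000782), which encodes TCF1, had 48, 49 and 42 counts in J110 and 4, 2 and 3 in SSM3. The levels were 9.24 ± 0.464 and 0.637 ± 0.236 CPM (SD, n = 3 each), with no overlap and a log2 fold change of -3.81 (SE 0.34, edgeR adjusted p = 2.72e-08). Tcf7l1 (ENSMUSG00000055799), whose product TCF3 acts mostly as a repressor, had 21, 24 and 11 counts in J110 and 4, 2 and 3 in SSM3. The log2 fold change was -2.51 (SE 0.45, edgeR adjusted p = 8.97e-05). Tcf7l2, which encodes TCF4, had 233, 254 and 235 counts in J110 and 188, 198 and 209 in SSM3. All its J110 libraries were above the SSM3 libraries in CPM, yet the log2 difference of -0.20 (95% interval -0.41 to 0.01) was not called (edgeR adjusted p = 0.0726). It was called without J110 replicate 1, at -0.26 with edgeR adjusted p = 0.0449, the lowest of its values. They reached 0.83 in edgeR's test with library size scaling alone, and 1 only in the test for changes beyond 2-fold. Lef1 had 5, 1 and 3 counts in J110 and 1, 4 and 1 in SSM3, and was not tested.

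**Figure D3:**
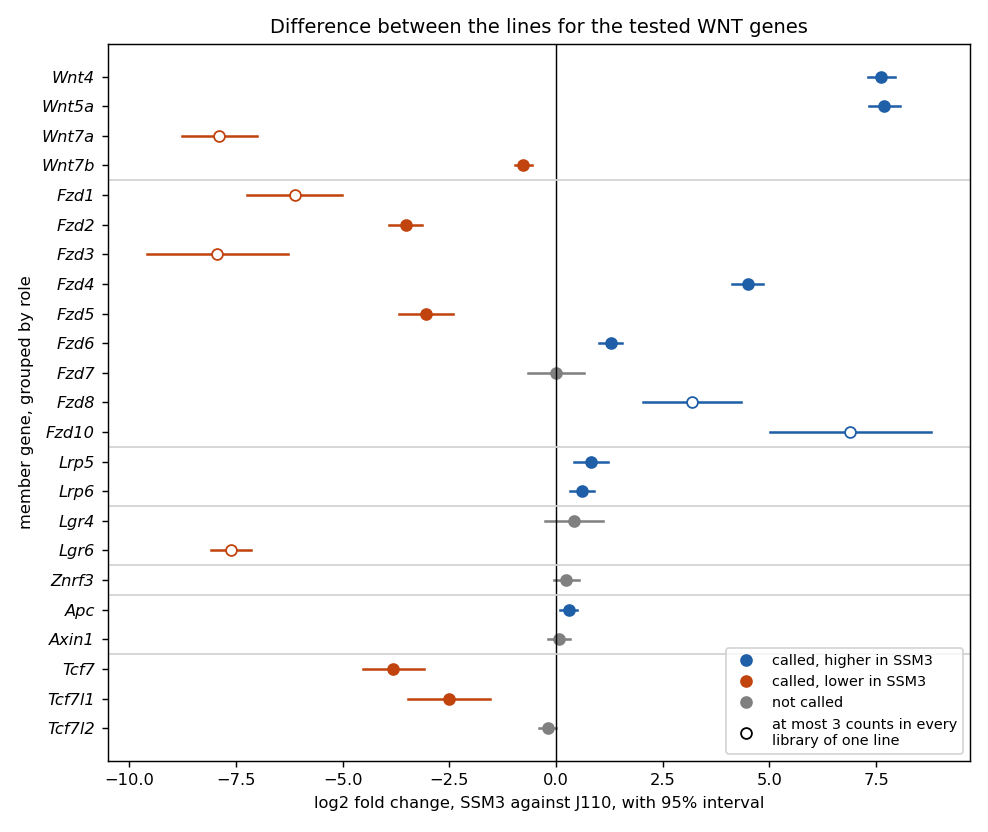
Fitted log2 fold change, SSM3 against J110, of the 23 tested members, with a 95% interval built from the SE. Blue marks genes called higher in SSM3, red those called lower and grey those not called. Where a line had few counts the interval may be too narrow. Open points mark the 6 genes that had no more than 3 counts per library in one line, where the fitted value is no bound, and the differences of Lrp5, Lrp6, Apc and Wnt7b are small beside those of Wnt4, Wnt5a, Wnt7a and Lgr6.

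Genes that make, pass on or modify the signal were listed beside the members. Of 32 genes of WNT secretion, β-catenin handling and transcription complexes, 30 were tested, 11 were higher and 12 lower in SSM3, and 7 were not called. The share called was 76.7%, where 77.9% of all genes tested were called. Their median log2 fold change was 0.06, and 3 of the 30 had a called change of at least 4-fold, where 21.7% of all genes tested had one.

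Ctnnb1, which encodes β-catenin, had 6110, 5919 and 5568 counts in J110 and 2197, 2442 and 2317 in SSM3. It fell from 1170 ± 8.02 to 490 ± 28.8 CPM (SD, n = 3 each), with a log2 fold change of -1.26 (SE 0.068, edgeR adjusted p = 4.34e-11). Ulk4 shares 759 exon bases with Ctnnb1 on the opposite strand and had nearly the same counts, from 5522 to 6064 in J110 and from 2182 to 2430 in SSM3, so reads of the pair cannot be assigned to one of them. The secretion genes went different ways. Porcn, the enzyme that attaches the lipid to WNT ligands, had 44, 48 and 33 counts in J110 and 75, 89 and 94 in SSM3. The log2 fold change was 1.12 (SE 0.18, edgeR adjusted p = 2.23e-05). Wls, the carrier that brings ligands to the cell surface, fell from 90.3 ± 4.74 to 73.4 ± 3.74 CPM (SD, n = 3 each), by 0.30 on the log2 scale (SE 0.086, edgeR adjusted p = 0.00473).

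Among the same 32 genes, the TLE co-repressors bind TCF factors in the absence of β-catenin. Of the 4 tested, 2 were called, in opposite directions, where 77.9% of all genes tested were called. Tle3 fell from 45.8 ± 3.15 to 9.88 ± 2.77 CPM and Tle4 rose from 5.53 ± 0.520 to 21.7 ± 2.99 CPM (SD, n = 3 each), with log2 fold changes of -2.22 and 1.97 (edgeR adjusted p = 3.25e-09 and 6.55e-08). Tle1 and Tle2 overlapped between the lines, with log2 differences of 0.07 and 0.03 (edgeR adjusted p = 0.601 and 0.953). Amer1, a partner of APC at the membrane, rose from 11.7 ± 1.36 to 53.2 ± 5.07 CPM (SD, n = 3 each), 2.175 as log2 fold change (edgeR adjusted p = 3.28e-10). The co-repressor gene Ctbp2 fell from 217 ± 16.7 to 81.2 ± 3.42 CPM (SD, n = 3 each), -1.42 as log2 fold change (edgeR adjusted p = 1.68e-10). It shares 314 exon bases with Fgfr2 on the same strand, which had 5 to 9 counts in J110 and 562 to 618 in SSM3.

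Of 27 genes of the β-catenin-independent branch and of extracellular modifiers, 12 were tested, 5 higher and 6 lower in SSM3, with a median log2 fold change of -0.23. Of all genes tested, 77.9% were called. Of the 12, 3 (Ror1, Celsr2 and Gpc4) had no more than 3 counts per library in one line and so passed the filter through the other line alone, and no more is read from the count. The receptors that bind Wnt5a-type ligands did not move together. Ror1 had 26, 16 and 12 counts in J110 and none in SSM3, at least 5.33-fold lower (edgeR adjusted p = 5.09e-06), and Ror2 had no count in any library. Ryk rose from 99.95 ± 4.92 to 144 ± 15.4 CPM and Ptk7, a polarity co-receptor, from 13.8 ± 0.889 to 25.7 ± 0.883 CPM (SD, n = 3 each), with log2 fold changes of 0.53 and 0.90 (edgeR adjusted p = 5.52e-05 and 1.96e-05). Daam1, a formin that links Dishevelled to actin, fell by 1.68 on the log2 scale (SE 0.13, edgeR adjusted p = 5.03e-09), and Kremen1, a receptor of DKK proteins, fell by 0.45 (SE 0.17, edgeR adjusted p = 0.0226). Vangl2, a core polarity gene, overlapped between the lines at 17.1 ± 2.67 and 17.0 ± 1.67 CPM (SD, n = 3 each).

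Of 20 genes often used as readouts of β-catenin, beyond the members, 10 were tested and all 10 were called, 2 higher and 8 lower in SSM3. Of all genes tested, 77.9% were called and 39.2% were lower. The list had a median log2 fold change of -3.01 where that of all genes tested was -0.014. Many other signals also act on these genes. Cd44, a hyaluronan receptor, fell from 726 ± 57.2 to 12.1 ± 1.11 CPM and Sox9, a progenitor transcription factor, from 220 ± 6.39 to 22.4 ± 3.41 CPM (SD, n = 3 each), log2 fold changes of -5.90 and -3.29 (edgeR adjusted p = 9.35e-17 and 4.88e-14). Bmp4 had 953, 902 and 803 counts in J110 and 0, 4 and 0 in SSM3. Ephb3, an ephrin receptor of crypt cells, went the other way and rose from 4.47 ± 0.840 to 62.2 ± 8.50 CPM (SD, n = 3 each), 3.80 as log2 fold change (edgeR adjusted p = 4.22e-12). Of the 10 tested, 1 (Ephb2) passed the filter through J110 alone. Bambi, a decoy receptor for BMP-type ligands that was not tested, had 1, 0 and 3 counts in J110 and 48, 43 and 9 in SSM3. SSM3 was at 26.4 times the J110 level (exact 95% counting interval 10.004 to 98.9). The interval does not cover the spread of the SSM3 libraries, which ranged from 1.79 to 10.7 CPM. Nkd1 and Sp5, feedback targets of the pathway, had no count in any library. Notum, an enzyme that takes the lipid off WNT ligands, had 4, 5 and 6 counts in J110 and none in SSM3, and was not tested. Like it, Axin2, Rnf43 and Lgr5 had counts in J110 libraries and none in SSM3, while Lef1 had counts in both.

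**Figure D4:**
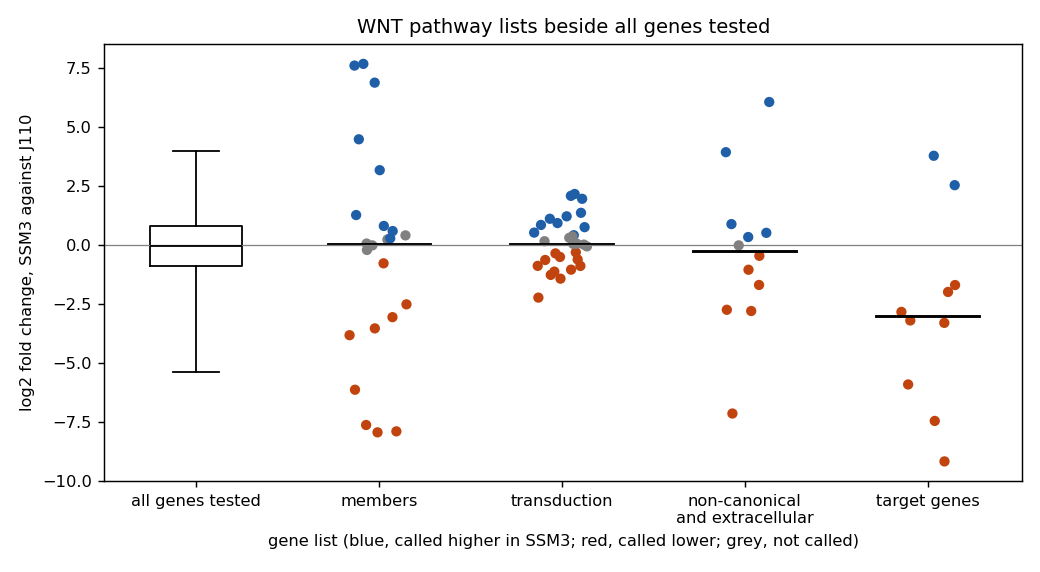
Log2 fold change, SSM3 against J110, of all 12284 genes tested (box from the first to the third quartile with the median, whiskers at the 5th and 95th percentiles) and of the tested genes of 4 lists, one point per gene with the median as a black line. The members and the non-canonical list spread to both sides, the transduction list spreads less, with its median near 0, and 8 of the 10 target genes lie below 0.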

How the data were processed

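RNA of 3 biological replicates each of J110 and SSM3 cells was made into QuantSeq 3′ libraries. The authors trimmed the reads with cutadapt (version 2.1), mapped them to mm10 with HISAT2 (version 2.0.4), counted them with featureCounts and deposited raw counts of 52636 genes without normalisation. The strand setting is not given in the sources used here. Of the gene identifiers, 52489 matched GENCODE M21 (GRCm38), which gave symbols and coordinates. One part of the genotype of the SSM3 mice is not reported here. The members and lists were chosen with earlier results of these data known.

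Low counts were removed by filterByExpr, libraries were scaled by TMM and the lines were compared with edgeR's quasi-likelihood test (version 4.0.16, in R 4.3.3), with 12284 genes tested. A standard error is the log2 fold change divided by the square root of F. TMM factors ranged from 0.920 to 1.07 and the biological coefficient of variation was 8.30%. The fit was also run on simulated data in which 200 genes were changed. In the real data 9566 were called, so that run does not check the scaling or the small changes reported here. Where all libraries of a line were at 0, the fold is a lower bound against 3 counts per library. With 1 to 3 counts in a library, a ratio of pooled CPM is given with an exact interval conditional on the summed counts. Exact intervals and floors cover counting error only. Of the members, 10 share exons with another counted gene, none of which had more than 17 counts in a library. Named genes are all members, and of each list Ctnnb1, Porcn and Wls and the 4 largest changes among called genes of at least 10 CPM. Ncoa3 was given as the gene of the J110 transgene. Single marker genes, Bambi, Ccn4, Celsr2, Ephb2, Esr1, Gata3, Gpc4, Ror1, Ror2, Tle1, Tle2, Vangl2, Nkd1, Nkd2, Sp5, Tnfrsf19, Notum and the genes that share exons were added after their values were seen. Alternatives were DESeq2 (version 1.42.0), limma-voom (version 3.58.1), other scalings, filters and thresholds, a block on replicate number and the omission of libraries.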

Additional observations from a re-analysis of the deposited data

How the results depend on the processing

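Over up to 16 alternatives each, 341 of 357 values of tested members kept their direction and side of the threshold. Requiring at least 10 counts in every library, which removes members that are low or absent in one line, left 5 members higher and 2 lower in SSM3. For changes beyond 2-fold, 4272 genes and 24 genes of the pathway lists were called, against 9566 and 44. Library size scaling alone shifted the median over all genes, in log2, from -0.014 to 0.16 and turned Fzd7 to 0.17, and testing every gene with a count gave Fzd7 0.015. Leaving out each library in turn gave from -0.19 to 0.17 for Fzd7 and from -0.018 to 0.15 for Axin1. Lgr4 was -0.18 without J110 replicate 3 and SSM3 replicate 2. Members called numbered 8 to 10 higher and 9 to 10 lower without each library, and DESeq2 called 9 and 9.

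Same-numbered libraries of the lines had small correlations of their deviations (Pearson's r across genes 0.012, 0.015 and 0.027 for numbers 1, 2 and 3). Genes are not independent replicates here. Each library correlated best with its own number, and whether same-numbered libraries share more than a number was not tested. With the replicate number as a block, 9 members were called higher and 9 lower, 44 genes of the pathway lists and 9481 genes in all. About 3 counts, or 0.6 CPM, is the limit of detection, which leaves 26 of 56 members without a usable level in either line.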

Other observations

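Some WNT pathway genes share exons with a counted gene on the opposite strand. LTO1, which shares 1100 exon bases with Ccnd1, had 7330, 6508 and 6840 counts in J110 and 877, 854 and 909 in SSM3, where Ccnd1 had 9696, 8699 and 9849, and 1015, 921 and 990. Acadvl, which shares 1151 exon bases with Dvl2, had 122 to 151 counts in J110 and 246 to 308 in SSM3, while Dvl2 had 273 to 288 and 258 to 331.

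Some low-count members that did not pass the filter had counts in J110 only. With every gene of at least 1 count tested, Rnf43 had an edgeR adjusted p of 0.0138, while Lgr5 had 0.0565 and Wnt2 had 0.0900. These genes entered that test through J110 alone, and the libraries of the lines overlapped for Lgr5 and Wnt2. In that setting 11123 of 22592 genes were called, and its p values are not read as calls.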
